A study of Mus musculus with 23 samples.

Results

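The genes described here are 37 genes that mark astrocytes or that are known to rise when astrocytes react to injury, measured in the hippocampus of 23 mice. They were taken as a named list, and all 37 were found by symbol among the 13766 genes of the deposited table, which keeps a gene only where it reaches a minimum raw count in every library of at least 1 group. The mice came from the FCG model on a C57Bl/6J background and were about 12 months old at collection. In the FCG model the Y chromosome lacks Sry, the gene that starts testis development, and mice with testes carry Sry on an autosome, which uncouples the gonad from the sex chromosomes. The groups were XX mice with ovaries (XXF, n = 5), XX mice with testes (XXM, n = 6), XY mice with ovaries (XYF, n = 6) and XY mice with testes (XYM, n = 6). No group received a treatment, and every library came from a different animal. The crossed groups allow the effect of the sex chromosomes (XY minus XX, averaged over gonads), the effect of the gonad (testes minus ovaries, averaged over sex chromosomes) and their interaction to be estimated for each gene. Weanlings were caged by the appearance of the genitalia, so cage type and gonad cannot be told apart.

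Astrocytes are the glial cells that clear glutamate and potassium from around synapses, buffer water, store glycogen and exchange small molecules through gap junctions. After injury or inflammation they become reactive: the filament proteins GFAP and vimentin accumulate, and acute-phase and metal-binding proteins are induced. In the hippocampus their glutamate transporters shape the signal at excitatory synapses. Whole tissue was sequenced, so a lower level of an astrocyte transcript can mean fewer astrocytes or less RNA in each of them, and these cannot be told apart.

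Levels are given in CPM, the usual unit in which the count of a gene is divided by the scaled total of its library. The totals ran from 10257751 to 36078221 counts, a ratio of 3.52. The lowest count of any of these genes in any library was 27, for Cd44. Xist, transcribed from the inactive X chromosome, was at 936 CPM or more in every XX library and at 2.86 CPM or less in the XY libraries, except for 94.1 CPM in XYF replicate 4. Ttr, a transcript of the choroid plexus, a tissue that borders the hippocampus, exceeded 1000 CPM in 7 libraries (1 XXF, 4 XXM, 1 XYF and 1 XYM), where it was at 1668 to 2927 CPM, against 19.1 to 152 CPM in the other 16. Summed levels of 9 neuron markers (5584 to 6639 CPM) and 10 microglia markers (455 to 621 CPM) overlapped between all 4 groups. Some marker lists had gonad estimates mainly of 1 sign: all 13 choroid plexus markers were positive (median log2 fold change 0.68), as were all 9 ependymal markers (median 0.38, 2 with an unadjusted p under 0.05), and the 10 microglia markers had a median of -0.14, with 4 lower at an unadjusted p under 0.05. The part of these cells in the gonad estimates of the astrocyte genes was not tested beyond the choroid plexus covariate given with those results. No marker of neurons, microglia, oligodendrocytes, their precursors, vessels, fibroblasts, ependyma or choroid plexus passed the test in the sex chromosome effect, the gonad effect or the interaction.

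None of the 37 astrocyte genes passed the test for any of the 3 effects or in any of the 6 pairwise comparisons of groups (edgeR quasi-likelihood test at 0.05, after Benjamini-Hochberg adjustment across the whole table). Over the whole table, 0.283% of genes passed for the sex chromosome effect, 0.16% for the gonad effect and 0% for the interaction. In the pairwise comparisons the corresponding shares were 0.291% for XYF against XXF, 0.116% for XYM against XXM, 0% for XXM against XXF, 0.225% for XYM against XYF, 0.131% for XYM against XXF and 0.501% for XYF against XXM. Calls were thus rare in the whole table, and a count of 0 among 37 genes is near that background. The lowest adjusted p among the astrocyte genes was 0.832 (Clu) for the sex chromosome effect, 0.161 (Mt2) for the gonad effect, and 0.999 in the test of the interaction. The 95% intervals show the size of change that the data allow, each for 1 gene and 1 comparison and not for all 37 jointly. For the sex chromosome effect the 95% interval of every one of the 37 genes lay inside a 1.5-fold change in either direction. For the gonad effect 36 lay inside it, the exception being Fabp7. For the interaction 36 did, and the interval of Cd44 ran from 0.615-fold to 1.71-fold. In the 6 pairwise comparisons 35 to 37 lay inside it.

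**Figure D1:**
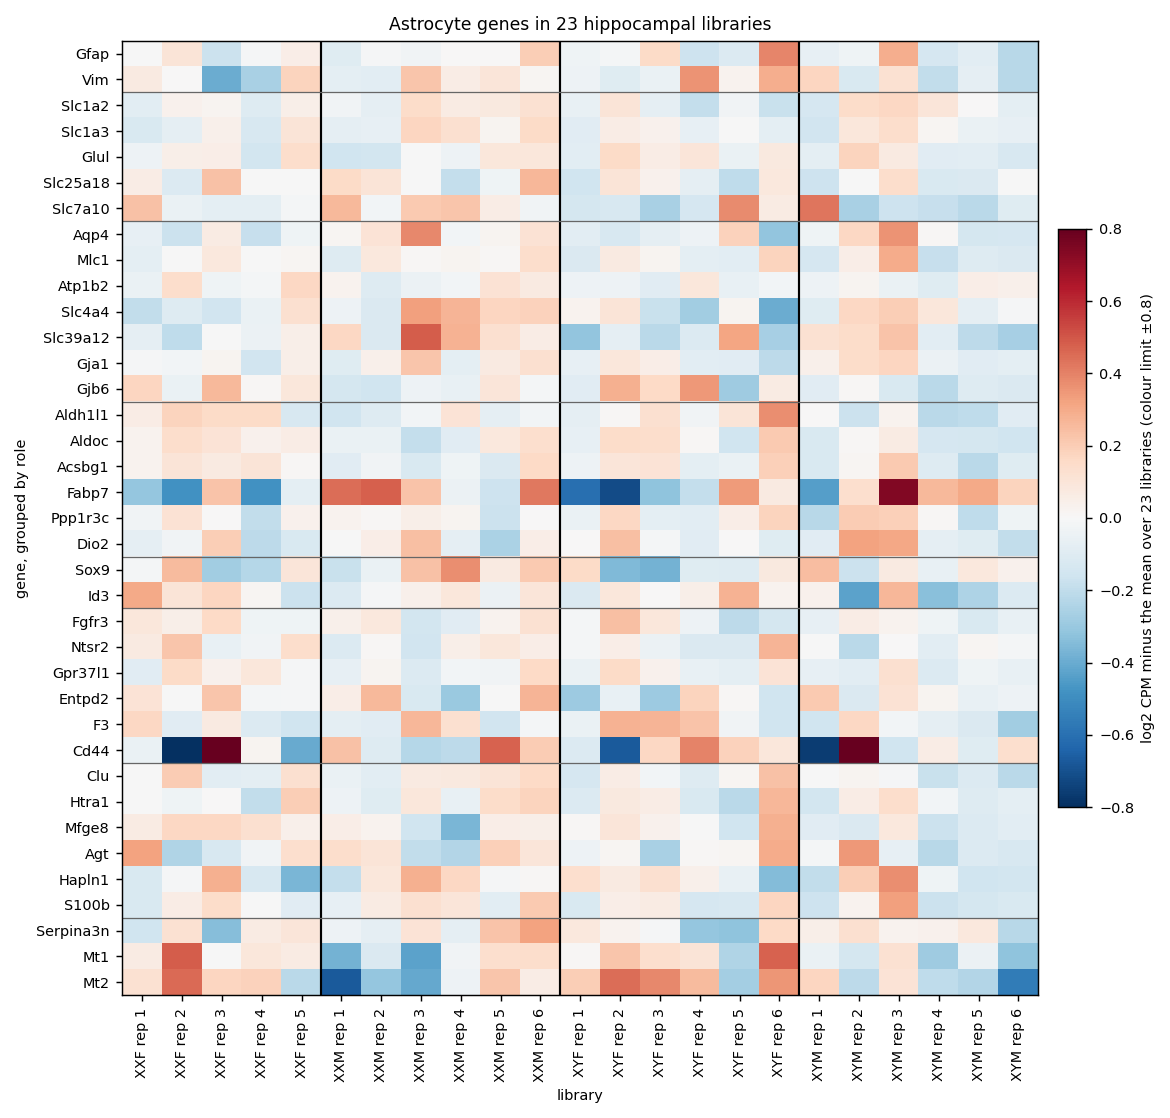
Heat map of the log2 CPM of each of the 37 astrocyte genes (rows, grouped by role) in each of the 23 libraries (columns, by group), as the difference from that gene's mean over all libraries; red is above the mean and blue below, and the colour scale ends at 0.8 log2 units. Most cells are pale, the widest departures are those of Fabp7, Cd44, Mt1 and Mt2, and no block of columns stands apart as a group.

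Taken as 1 mean, the astrocyte genes had overlapping levels in all 4 groups. The mean log2 CPM over the 37 genes was 6.75 ± 0.04 in the 5 XXF libraries, 6.77 ± 0.06 in the 6 of XXM, 6.74 ± 0.05 in the 6 of XYF and 6.71 ± 0.10 in the 6 of XYM (SD). The lowest library, XYM replicate 6, was at 6.63 and the highest, XYM replicate 3, at 6.87, so the whole span of 23 animals was 0.25 log2 units and both of its ends fell in 1 group. Within groups the animal-to-animal SD of a single astrocyte gene had a median of 0.147 log2 units, beside 0.153 over all genes.

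**Figure D2:**
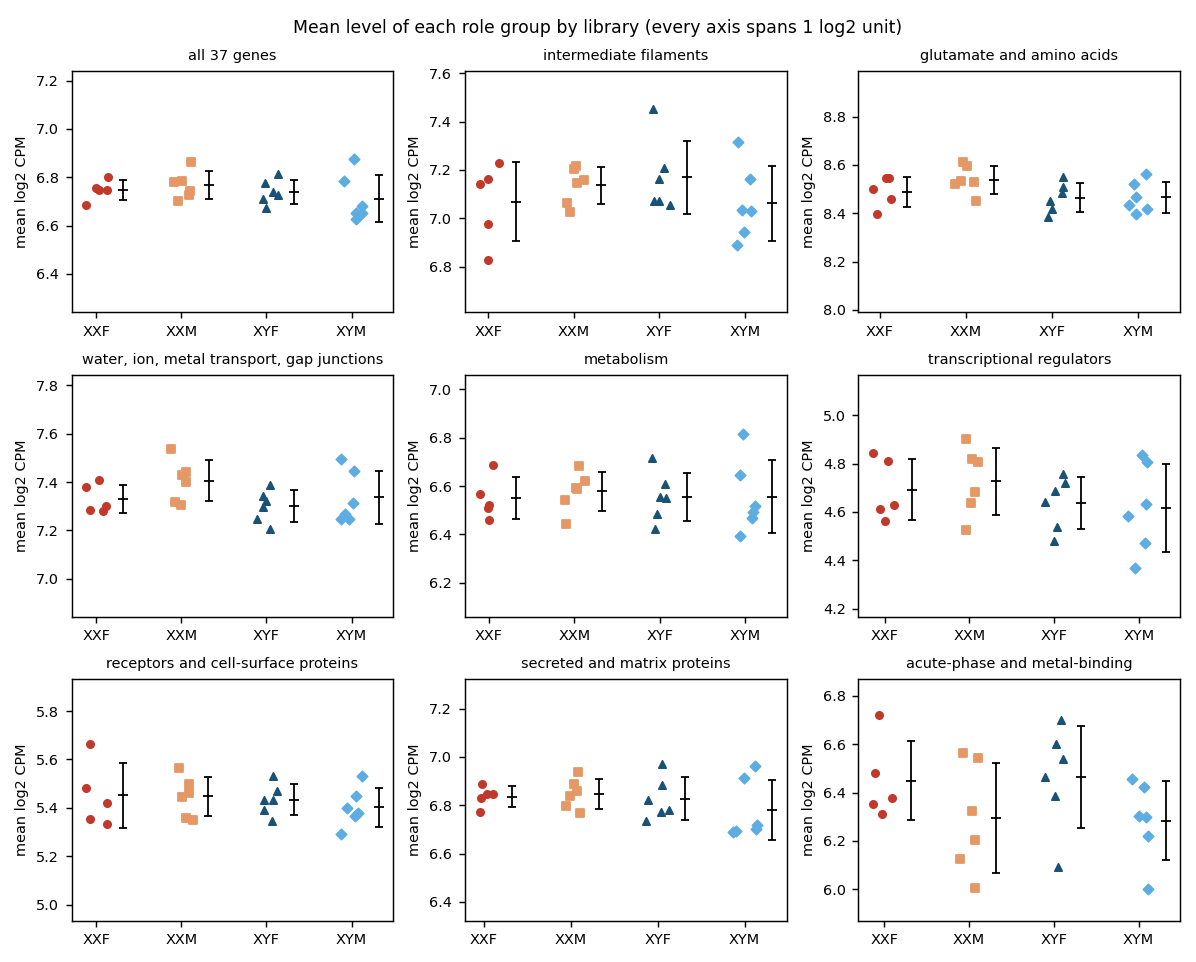
Mean log2 CPM of all 37 astrocyte genes and of each of their 8 role groups, by library; points are libraries, and the horizontal mark with bars is the group mean with its SD (n = 5 for XXF, n = 6 for the others). The groups overlap in every panel, and the acute-phase and metal-binding panel has the widest span, 0.72 log2 units.

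The abundance of the transcripts, taken per kilobase of annotated exon so that genes can be compared, spanned a wide range. Glul, which encodes the enzyme that turns glutamate into glutamine, led at 434 CPM per kb and was above every other gene in this order in every library. Slc1a2, Clu and Aldoc followed at 243, 241 and 234 CPM per kb and did not keep 1 order across libraries. Mt2 came next at 126 CPM per kb. From Mt2 to Mlc1 (82.4 CPM per kb), a run that includes Gfap at 107 CPM per kb, no neighbouring genes differed in the same direction in every library. At the lower end lay Vim at 9.02, Sox9 at 6.44, Entpd2 at 5.87 and Hapln1 at 5.44 CPM per kb. Cd44 was last at 0.791 CPM per kb, below all others in every library.

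Gfap and Vim, the 2 intermediate filament genes whose rise defines reactive astrocytes, did not pass any comparison. Gfap (chromosome 11, 102887336 to 102897200, minus strand, in GRCm38 coordinates as deposited) was at 448, 482, 397, 446 and 466.4 CPM in the 5 XXF libraries. Its lowest, median and highest levels were 420, 447 and 514 CPM in XXM, 400, 441 and 588 CPM in XYF, and 385, 426 and 548 CPM in XYM. The groups overlapped almost completely, and the 2 highest libraries were XYF replicate 6 and XYM replicate 3. The sex chromosome effect on Gfap was 0.00 on the log2 scale (95% interval -0.12 to 0.13) and the gonad effect -0.03 (-0.16 to 0.09). Vim was at 44.6, 42.6, 32.3, 35.5 and 48.0 CPM in XXF, with medians of 43.6 in XXM, 42.4 in XYF and 39.8 in XYM. Its interaction estimate of -0.25 (95% interval -0.54 to 0.04, adjusted p = 0.999) was the largest in size among the 37 genes. It combines a gonad estimate of 0.11 in XX mice with one of -0.14 in XY mice, and it did not pass the test.

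None of the 5 genes of glutamate and amino acid handling passed a comparison. Slc1a2 and Slc1a3 encode the transporters GLT-1 and GLAST that take up synaptic glutamate. Slc1a2 was at 3009, 3259, 3240, 2969 and 3299 CPM in XXF, while lowest, median and highest levels were 3032, 3356 and 3526 in XXM, 2791, 3048 and 3422 in XYF, and 2902, 3304 and 3584 in XYM. Both groups with testes had the higher medians, yet the ranges overlapped, and the gonad effect of 0.09 (95% interval 0.0035 to 0.17) did not pass (adjusted p = 0.35). Slc1a3 had a gonad effect of 0.06 (-0.03 to 0.14) and Glul one of -0.05 (-0.14 to 0.04). Slc25a18, a mitochondrial glutamate carrier, had a sex chromosome effect of -0.08 (-0.20 to 0.03).

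Slc7a10 encodes Asc-1, a transporter of small neutral amino acids including serine and glycine. Its levels in XXF were 39.1, 32.1, 31.5, 31.5 and 32.9 CPM, and the lowest, median and highest were 32.6, 36.6 and 39.7 in XXM, 27.8, 30.4 and 43.2 in XYF, and 27.7, 29.4 and 44.7 in XYM. Of the 12 XY libraries 9 lay below every XX library and 2 above every one. Those 2, XYF replicate 5 and XYM replicate 1, were the XY libraries rich in Ttr, and 6 of the 7 Ttr-rich libraries were among the 7 with the most Slc7a10. For 14 of the 37 astrocyte genes, the most frequent case, that number was 2. Among the 16 libraries with little Ttr, 9 of 10 XY libraries (median 29.9 CPM) lay below all 6 XX libraries (31.5 to 32.9 CPM), and the other lay above them at 34.8 CPM. As many XY libraries beyond the XX range on 1 side were found for 0.378% of all genes. The next highest number among the astrocyte genes was 7, for Entpd2. The split by Ttr was made after the values were seen, Slc7a10 was picked from 37 genes, and the split carries no test. Over all libraries the sex chromosome effect was -0.11 (95% interval -0.27 to 0.06, adjusted p = 0.884). It was -0.17 without XYM replicate 1, -0.15 without XYF replicate 5 and -0.02 with the choroid plexus level as a covariate, and passed in none of these. The part of choroid plexus RNA in these levels was not tested beyond that covariate.

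**Figure D3:**
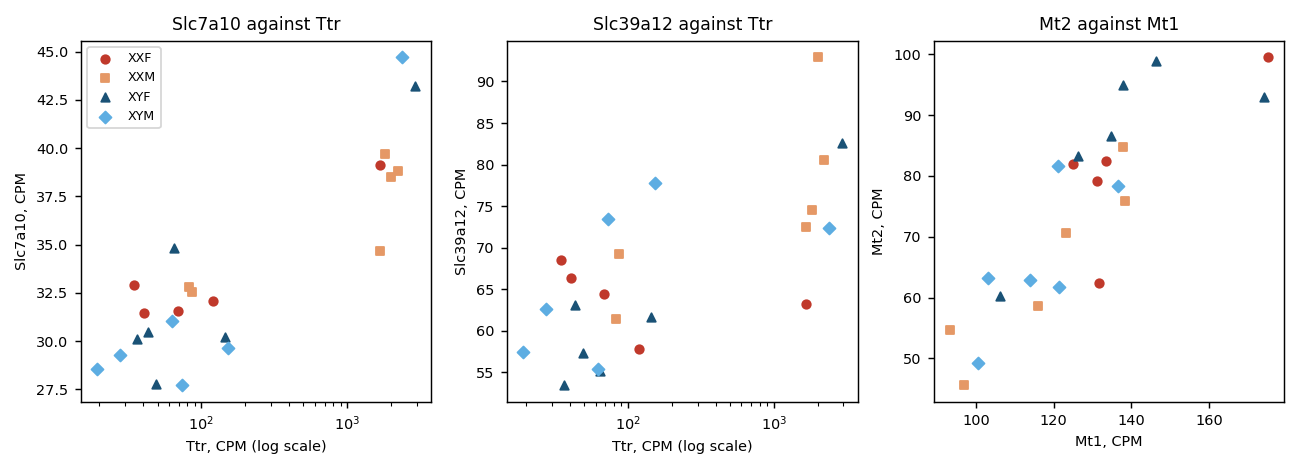
Left and middle, Slc7a10 and Slc39a12 (CPM) against the choroid plexus transcript Ttr (CPM, log scale); right, Mt2 against Mt1 (CPM); each point is 1 of 23 libraries, coloured by group, and the axes do not start at 0. The 7 libraries with Ttr above 1000 CPM hold Slc7a10 at 34.7 to 44.7 CPM, against 27.7 to 34.8 CPM in the other 16, and Mt1 and Mt2 vary together across animals.

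Among the genes of water, ion and metal transport and gap junctions, 5 of 7 had positive and 2 negative gonad estimates, and none passed. Slc4a4, a sodium bicarbonate cotransporter that couples astrocyte pH to neuronal activity, was at 188, 200.3, 193, 207 and 235 CPM in XXF. Its lowest, median and highest levels were 199, 243 and 270 in XXM, 163, 204 and 231 in XYF, and 201, 221 and 247 in XYM. Of the 12 libraries with testes 6 exceeded every library with ovaries, and 11 lay above the median of the latter. The gonad effect was 0.18 ± 0.06 (SE), or 1.14-fold (95% interval 1.04 to 1.24), with an adjusted p of 0.209. Aqp4, the water channel of astrocyte endfeet, showed an estimate of 0.15 (0.02 to 0.28, adjusted p = 0.288), with 157 to 187 CPM in XXF, 176 to 233 in XXM, 143 to 203 in XYF and 162 to 229 in XYM. Slc39a12, a zinc importer, showed 0.16 (0.01 to 0.32, adjusted p = 0.338). That estimate was 0.10 with the choroid plexus covariate, and 5 of the 7 highest Slc39a12 libraries were rich in Ttr. Gja1 and Gjb6 encode the 2 main connexins of astrocyte gap junctions, and their gonad estimates had opposite signs: 0.07 (-0.02 to 0.17) for Gja1 and -0.18 (-0.29 to -0.06, adjusted p = 0.205) for Gjb6. Whether the 2 connexin genes differ from each other was not tested. Mlc1, a membrane protein of perivascular endfeet, and Atp1b2, the glial beta subunit of the sodium pump, had gonad estimates near 0, at 0.00 (-0.10 to 0.10) and -0.01 (-0.08 to 0.06). Atp1b2 varied least of the 37 genes from animal to animal, with a within-group SD of 0.0776 log2 units and 402 to 484 CPM over all libraries.

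Fabp7 had the largest gonad estimate of the metabolic genes and of all 37. It encodes the brain-type fatty acid binding protein of radial glia and astrocytes, and lies on chromosome 10 from 57784923 to 57788450 (plus strand). Its levels in XXF were 18.5, 16.4, 26.9, 16.4 and 21.7 CPM. The lowest, median and highest were 20.4, 28.8 and 31.9 CPM in XXM, 13.96, 19.2 and 29.1 in XYF, and 16.9, 26.7 and 38.4 in XYM. Of the 12 libraries with testes, 4 exceeded every library with ovaries and 11 lay above their median. The gonad effect was 0.44 ± 0.13 (SE), or 1.35-fold (95% interval 1.13 to 1.63), with an adjusted p of 0.169. The 2 differences that this effect averages were 0.45 ± 0.19 (SE) in XX and 0.43 ± 0.18 (SE) in XY mice, and the interaction was -0.02 (-0.55 to 0.51). Fabp7 also varied more between animals than most genes, with a within-group SD of 0.345 log2 units and a 2.75-fold range over libraries.

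The other metabolic genes had small estimates. Aldh1l1, the folate enzyme widely used to label astrocytes, had a gonad estimate of -0.16 (95% interval -0.27 to -0.06, adjusted p = 0.192). It was at 60.7, 65.8, 64.8, 64.9 and 53.2 CPM in XXF, with medians of 56.4 in XXM, 60.5 in XYF and 53.2 in XYM, and 11 of the 12 libraries with testes lay below the median of those with ovaries. Aldoc, the brain aldolase of glycolysis, had -0.11 (-0.21 to -0.02, adjusted p = 0.272). Acsbg1, which activates long-chain fatty acids, had -0.09 (-0.19 to -0.00060, adjusted p = 0.361). With the choroid plexus covariate these last 2 estimates were -0.09 and -0.07. Ppp1r3c, a glycogen-targeting subunit of protein phosphatase 1, and Dio2, the deiodinase that makes active thyroid hormone, had -0.02 (-0.12 to 0.09) and 0.04 (-0.10 to 0.18).

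The transcriptional regulators Sox9, a determinant of glial fate, and Id3, an inhibitor of basic helix-loop-helix factors, had gonad estimates of opposite sign, 0.15 (-0.01 to 0.30, adjusted p = 0.405) and -0.13 (-0.27 to 0.02, adjusted p = 0.424). Both had negative sex chromosome estimates, -0.07 (-0.23 to 0.09) and -0.08 (-0.23 to 0.06). Sox9 was at 21.7 to 31.5 CPM in XXF, 23.3 to 34.2 in XXM, 20.3 to 29.4 in XYF and 23.4 to 31.3 in XYM, so the groups overlapped. Id3 was at 18.1 to 30.0 CPM over all libraries.

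For the 6 receptor and cell-surface genes, the gonad estimates lay between -0.07 and 0.05. Fgfr3, a fibroblast growth factor receptor, had -0.03 (-0.13 to 0.06). Ntsr2, a neurotensin receptor, had -0.07 (-0.17 to 0.03), Gpr37l1, an orphan receptor, -0.05 (-0.13 to 0.03), and Entpd2, which hydrolyses extracellular ATP, 0.05 (-0.10 to 0.20). F3, the coagulation tissue factor, had -0.07 (-0.20 to 0.06). Cd44, the hyaluronan receptor that rises in reactive astrocytes, was at 4.93, 2.66, 10.1, 5.2 and 3.86 CPM in XXF and at 3.01 to 8.90 CPM elsewhere. It had the widest interval of the 37 genes for the sex chromosome effect, 0.753-fold to 1.255-fold.

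None of the 6 secreted and matrix genes passed a comparison. Clu encodes clusterin, an abundant secreted chaperone, and had the lowest adjusted p of the 37 for the sex chromosome effect. It was at 825, 949, 778, 781 and 902 CPM in XXF, with lowest, median and highest levels of 777, 868 and 923 in XXM, 752, 823 and 972 in XYF, and 710, 792 and 838 in XYM. Its sex chromosome estimate was -0.08 (95% interval -0.17 to 0.02, adjusted p = 0.832), or 0.949-fold with an interval of 0.888 to 1.01. Mfge8, a secreted bridge in the engulfment of cell debris, had a gonad estimate of -0.15 (-0.25 to -0.04, adjusted p = 0.219), and 11 of the 12 libraries with testes lay below the median of those with ovaries. Htra1, a secreted serine protease, Agt, the angiotensin precursor, Hapln1, a link protein of the matrix, and S100b, a calcium-binding protein, had gonad estimates of 0.01, -0.02, 0.07 and 0.02, each with an interval that held 0.

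Mt1 and Mt2 encode metallothioneins, small zinc- and copper-binding proteins induced by metals, glucocorticoids and oxidative stress. They are neighbours on chromosome 8, Mt2 at 94172618 to 94173567 and Mt1 at 94179089 to 94180327, both on the plus strand. They are related in sequence, and the treatment of reads that match both is not stated in the labels or headers, so their separate values are uncertain to that degree. The 250 bases before each annotated gene start are shown for description. They come from RefSeq (GRCm38.p6), plus strand, for chr8:94178839-94179088 and chr8:94172368-94172617. Capitals mark matches to the core of the metal response element, searched as TGCACNC and TGCGCNC on both strands, of which no matches overlapped.
Mt1: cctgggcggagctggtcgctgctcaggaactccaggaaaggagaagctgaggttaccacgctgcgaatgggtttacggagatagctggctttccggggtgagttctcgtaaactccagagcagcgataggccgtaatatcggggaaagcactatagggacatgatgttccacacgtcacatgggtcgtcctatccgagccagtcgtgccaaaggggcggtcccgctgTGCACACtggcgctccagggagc
Mt2: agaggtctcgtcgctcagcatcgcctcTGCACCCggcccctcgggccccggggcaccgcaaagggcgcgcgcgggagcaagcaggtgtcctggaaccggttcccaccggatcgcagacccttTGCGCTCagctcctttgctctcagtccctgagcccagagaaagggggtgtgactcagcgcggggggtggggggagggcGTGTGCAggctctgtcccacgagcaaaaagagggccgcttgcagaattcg
The Mt1 window held 1 match and the Mt2 window 3. At least 1 match was present in 21.4% of 32851 RefSeq promoter windows of the same length and at least 3 in 1.26%. A match is a run of letters, not a measured binding site. Bases after the annotated start were not searched, so the counts do not give the full number of elements of either gene. The part of these matches in the levels of Mt1 and Mt2 was not tested.

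Mt2 was at 79.1, 99.5, 82.0, 82.5 and 62.5 CPM in XXF. Its lowest, median and highest levels were 45.6, 64.6 and 84.8 in XXM, 60.2, 89.7 and 98.9 in XYF, and 49.2, 63.1 and 81.7 in XYM. The groups with testes had lower medians than those with ovaries, 11 of 12 libraries with testes lay below the median of the others, and the ranges overlapped. The gonad effect was -0.35 ± 0.10 (SE), or 0.784-fold (95% interval 0.679 to 0.906), with an adjusted p of 0.161, so it did not pass. In XX mice the difference was -0.32 and in XY mice -0.38. Mt1 was at 131, 175, 125, 134 and 132 CPM in XXF, with medians of 119.5 in XXM, 136 in XYF and 118 in XYM. Its gonad effect was -0.24 ± 0.08 (SE), or 0.844-fold (0.753 to 0.946), with an adjusted p of 0.204. Serpina3n, an acute-phase protease inhibitor and a widely used marker of reactive astrocytes, had a gonad estimate of the other sign. It was at 55.3, 67.2, 48.9, 64.6 and 66.2 CPM in XXF, with medians of 63.4 in XXM, 62.2 in XYF and 63.6 in XYM. The estimate was 0.09 (-0.04 to 0.23, adjusted p = 0.552). Serpina3n belongs to a cluster of close copies, so its count is uncertain where reads fit several of them.

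**Figure D4:**
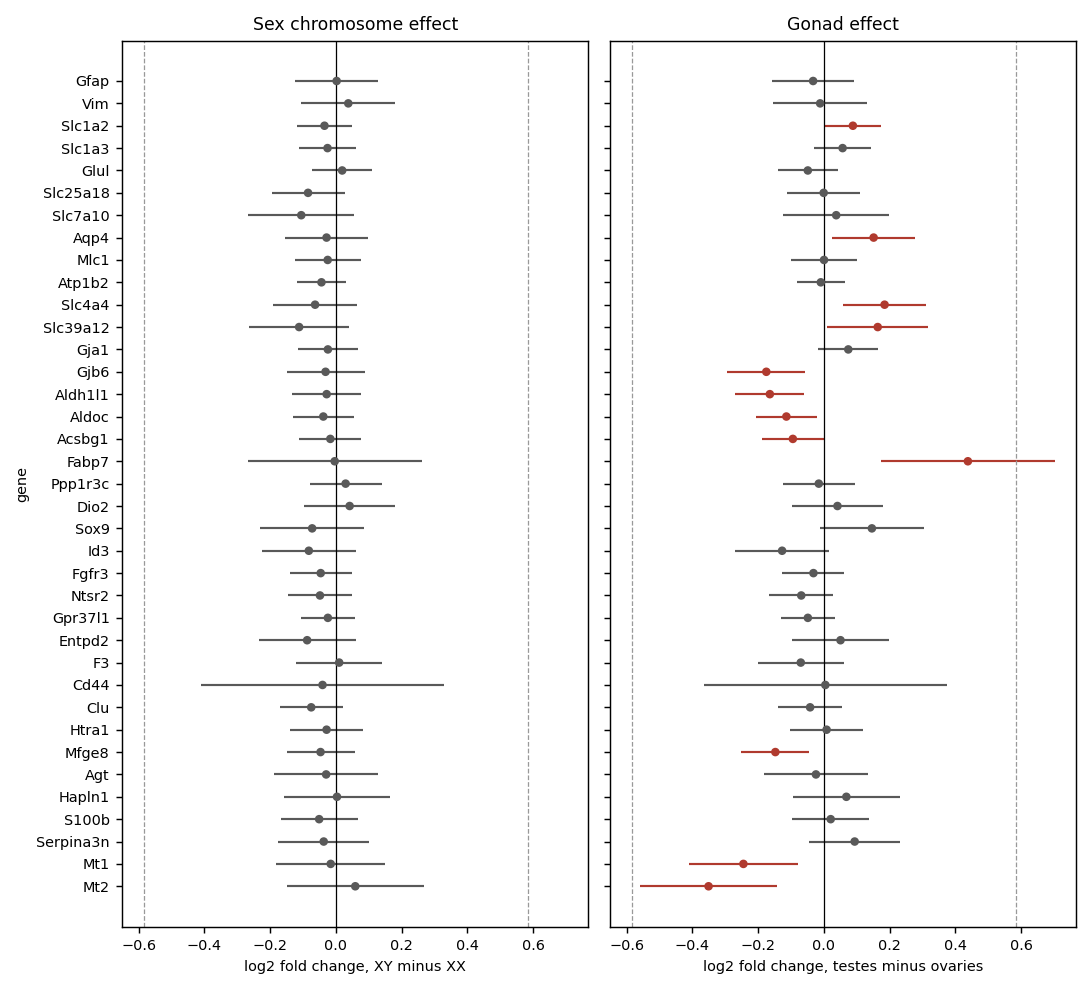
Log2 fold change with its 95% interval for the sex chromosome effect (left, XY minus XX) and the gonad effect (right, testes minus ovaries) of the 37 astrocyte genes (n = 23 libraries); dashed lines mark a 1.5-fold change, and red marks genes with an unadjusted p under 0.05, none of which passed after adjustment. Every interval on the left lies inside the dashed lines, and on the right only that of Fabp7 crosses one.

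Estimates of the sex chromosome effect ran from -0.11 (Slc39a12) to 0.06 (Mt2), with a median of -0.03 beside 0.00 over all genes, and all 37 were within 1.1-fold, where 86.7% of all genes lay. No astrocyte gene had an unadjusted p under 0.05 for this effect, against 6.78% of all genes. Gonad estimates ran from -0.35 (Mt2) to 0.44 (Fabp7), with a median of -0.01 beside 0.00, and 27 were within 1.1-fold (73.0%, against 81.5% of all genes). An unadjusted p under 0.05 was found for 12 of the 37 (32.4%), where the share over all genes was 13.6%. Of these, 5 were higher with testes (Fabp7, Slc4a4, Slc39a12, Aqp4 and Slc1a2) and 7 lower (Mt2, Mt1, Gjb6, Aldh1l1, Mfge8, Aldoc and Acsbg1), and no test was made of whether the genes as a list differ from others. The 12 include members of 5 of the 8 role groups and both directions within transport and within metabolism. For all 12 the ranges of libraries with testes and with ovaries overlapped. With the choroid plexus level as a covariate, 10 of the 37 had an unadjusted p under 0.05, where 11.6% of all genes did. For the interaction no astrocyte gene had one, against 3.23% of all genes. Of the 37 interaction estimates 28 were negative, with a median of -0.04 beside -0.01 over all genes. All 13 choroid plexus markers and all 9 ependymal markers also had negative interaction estimates (medians -1.98 and -0.50). Positive ones were found for 1 of 10 microglia, 2 of 8 vascular and 4 of 7 fibroblast markers. The counts were 5 of 8 for oligodendrocyte markers, 4 of 6 for their precursors and 6 of 9 for neuron markers. The part of any of these cells in the interaction estimates of the astrocyte genes was not tested. The sex chromosome and gonad effects are estimated from the same 23 animals.

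**Figure D5:**
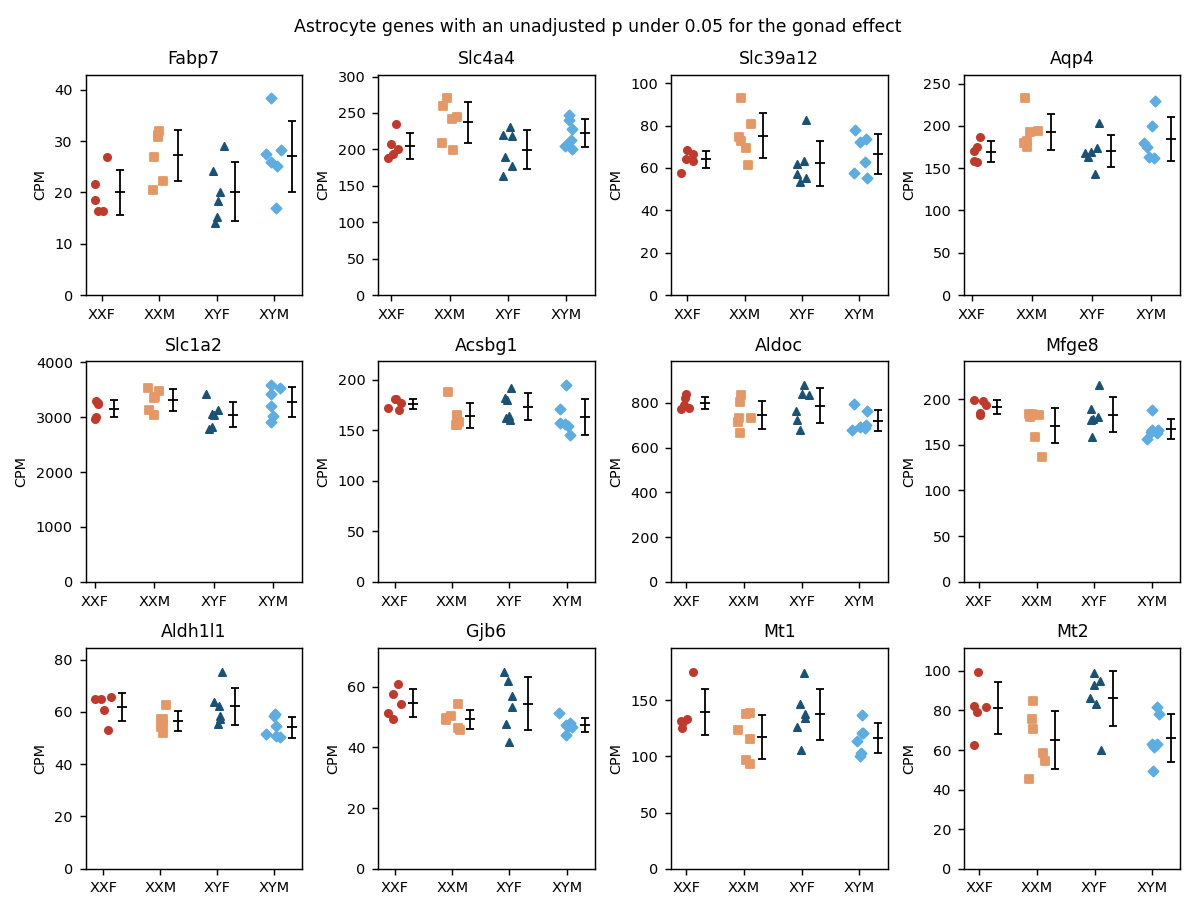
CPM by library and group for the 12 astrocyte genes with an unadjusted p under 0.05 for the gonad effect; points are libraries, the horizontal mark with bars is the group mean with its SD (n = 5 for XXF, n = 6 for the others), and every axis starts at 0. The genes were chosen by this contrast, so a shift between groups with testes and with ovaries restates the choice; the points overlap in every panel, and none passed adjustment over all genes.

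Within groups, some of these genes varied together from animal to animal. After each group's mean was removed, 10 pairs were tested over the 23 animals with 100000 permutations within groups and Benjamini-Hochberg adjustment over the 10. The pairs were chosen for the roles of their genes, with earlier results of these data known. The glutamate transporters Slc1a2 and Slc1a3 had a Pearson r of 0.85 (Spearman rho 0.87, permutation p = 1e-05, the smallest these permutations can give, adjusted p = 1e-04), and 0.83 without the 2 animals farthest from the median. Slc1a3 was the closest of 13765 genes to Slc1a2. Mt1 and Mt2 had r = 0.82 (rho 0.80, permutation p = 2e-05, adjusted p = 1e-04), and 0.84 without 2 animals. Reads that match both genes may be divided between them in an unstated way, and the permutations cannot tell this from levels that vary together. Mt2 was number 8 of 13765 genes by closeness to Mt1. Gfap and Serpina3n, a pair of reactivity genes, had r = 0.65 (rho 0.65, permutation p = 0.00208, adjusted p = 0.00693), and 0.75 without 2 animals. Serpina3n was number 322 of 13765 genes by closeness to Gfap, so many other genes followed Gfap more closely. The other 7 pairs did not pass on either measure. Gfap and Vim had r = 0.39 (permutation p = 0.0949, adjusted p = 0.223), which fell to 0.19 without 2 animals, and Gfap and Aqp4 had r = -0.02. Gfap and Cd44 had r = -0.24 (permutation p = 0.273, adjusted p = 0.342). A relation of Gfap with these 3 genes was thus not shown.

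Over all 666 pairs of the 37 genes the median r was 0.17 and the mean 0.18, beside a mean of 0.00135 over all gene pairs, and 474 pairs were positive. Libraries share depth and scaling, so these values are descriptions. The highest was between Mlc1 and S100b (0.92), followed by Acsbg1 and S100b (0.88) and Mlc1 and Acsbg1 (0.86). The lowest was between Aqp4 and Ntsr2 (-0.56). The genes most like Gfap in this respect were Wscd1 (r = 0.88), Gstm1 (0.86), Arpc1a (0.84), Taldo1 (0.84) and Eef2 (0.83). Those most like Slc1a2 were Slc1a3, Slc4a4 (0.82), Rapgef4 (0.82), Atp2b1 (0.80) and Ptprz1 (0.79). Those most like Mt1 were Nat8l (0.87), Arpc1a (0.86), Dhrs1 (0.85), Eml2 (0.84) and Rnf187 (0.83).

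Further lists of astrocyte genes were tested in the same fit. Of 36 other genes enriched in astrocytes, all were in the table and none passed for any of the 3 effects, with medians of -0.02 (sex chromosomes), 0.00 (gonad) and -0.05 (interaction) on the log2 scale. Of 9 pan-reactive genes 5 were in the table, and of 13 genes of the so-called A2 state 8 were, and none of these passed. All 11 genes listed here for the A1 state, a reactive state described after inflammation, were in the table. Of these, 3 passed for the gonad effect and 1 for the sex chromosome effect, against 0.16% and 0.283% of all genes. No test was made of the list as a whole. H2-D1, a class I histocompatibility gene, was lower with testes, with a log2 fold change of -0.60 (SE 0.09, adjusted p = 0.00331). Its mean was 46.8 ± 5.15 CPM in XXF (n = 5), 36.4 ± 3.74 in XXM, 73.7 ± 11.2 in XYF and 41.1 ± 11.3 in XYM (n = 6 each, SD). Gbp2, an interferon-induced guanylate-binding protein, was lower with testes (-0.61, SE 0.11, adjusted p = 0.00683), with means of 5.00 in XXF, 4.17 in XXM, 8.37 in XYF and 4.29 CPM in XYM. Iigp1, an interferon-induced GTPase, was lower with testes (-0.90, SE 0.17, adjusted p = 0.0129) and was the only gene of the list to pass for the sex chromosomes, higher in XY by 1.03 (SE 0.17, adjusted p = 0.00147). The gonad call of Iigp1 was lost with limma voom (-0.84, adjusted p = 0.0593). The means of Iigp1 were 2.43 in XXF, 1.67 in XXM, 6.47 in XYF and 2.62 CPM in XYM, so XYF stood highest for all 3 genes. These 3 belong to interferon-inducible families with close copies and are expressed by other cell types as well, so their counts are uncertain where reads fit several genes, and the cell of origin was not tested. Microglia markers, measured in the same libraries, summed to 489 to 621 CPM in XYF and 455 to 561 CPM over the other groups. Without XYF replicate 4, the library with Xist at 94.1 CPM, all 4 of these calls held (adjusted p 0.00306 to 0.0308). The interaction passed for none of the 11. Of the 11, 5 had a negative interaction estimate with an unadjusted p under 0.05, and the median interaction estimate was -0.33. The share over all genes with such a p, in either direction, was 3.23%. Each gonad effect averages the difference in XX mice and the one in XY mice, and for XXM against XXF 0% of all genes passed.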

How the data were processed

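Hippocampal RNA of 23 mice was analysed, 1 library per animal, with groups taken from the titles and replicate numbers in accession order, which only name libraries. Per the labels' protocols, ribosomal RNA was depleted and stranded libraries, from 500 ng of RNA each, were read for 100 bases from both ends. The authors deposited 1 table with an estimated count per gene and library, and per the file headers it keeps a gene if, in 1 or more groups, 100% of libraries have a raw value of 20 or above. The deposited log2 values of the same genes were used only for an alternative test chosen after the data were seen. The submitters' processing notes name mm10 and DESeq, and no source used here gives the aligner, the counting program or its use of strand. Library totals ran from 10257751 to 36078221.

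Estimated counts were rounded, scaled by TMM factors and tested with edgeR (version 4.0.16, R version 4.3.3) quasi-likelihood tests with a mean for each of 4 groups. All 13766 genes passed the filterByExpr function. Contrasts gave the 3 effects and 6 pairwise comparisons, 2-sided, with Benjamini-Hochberg adjustment over all genes and a threshold of 0.05. CPM used the scaled library total, and log2 CPM a prior count of 2. Each SE is the log2 fold change over the root of the F statistic, and 95% intervals use the t distribution with the degrees of freedom of edgeR. Exon lengths are from GENCODE M21 (GRCm38), with which the deposited coordinates of all 37 genes overlapped. Promoter windows were available for 33 of the 37. Alternatives used DESeq2 (version 1.42.0), limma (version 3.58.1), other scalings and filters, a choroid plexus covariate and each library left out in turn.

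The 37 genes, the other gene lists, the pairs and the comparisons were chosen with earlier results of these data known. All 37 genes are named, other lists by counts and by the genes that passed, and the 5 genes nearest to Gfap, Slc1a2 and Mt1 by correlation. The fits were also run on simulated counts with known changes. Those counts were drawn independently for each gene, with no shared choroid plexus variation. The run therefore cannot show how the fits behave under such variation.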

Additional observations from a re-analysis of the deposited data

Results flagged for a closer look

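In 16 of 148 sets formed by a gene and a group, 1 animal stood apart from the others of its group by a gap that took up most of the group's range (Dixon's criterion at 95%). Chance flags about 1 in 20 such sets, and genes of 1 library are not independent. Of the 16 values, 4 came from XYM replicate 3. In that animal Gfap was at 548 CPM, Gpr37l1 at 231 CPM, Mfge8 at 188 CPM and S100b at 176 CPM, all above the rest of the group. The same animal had the highest mean of the 37 astrocyte genes. XXM replicate 6 was high for Gfap (514 CPM) and for Acsbg1 (188 CPM). Slc7a10 was high in XXF replicate 1 (39.1 CPM) and XYM replicate 1 (44.7 CPM), and Slc39a12 was high in XYF replicate 5 (82.6 CPM). Each of these 3 libraries had Ttr above 1000 CPM. Aqp4 was high in XXM replicate 3 (233 CPM), also rich in Ttr. Atp1b2 was high in XYF replicate 4 (459.5 CPM), the XY library with the most Xist. Dio2 was high in XYF replicate 2 (84.0 CPM), Agt in XYM replicate 2 (29.3 CPM) and Mt1 in XXF replicate 2 (175 CPM). Ppp1r3c was low in XXM replicate 5 (51.2 CPM), another library with Ttr above 1000 CPM, and Serpina3n was low in XYM replicate 6 (53.0 CPM). Of all 23 libraries 7 had Ttr above 1000 CPM, and whether flags were more frequent in them was not tested. No cause was tested.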

How the results depend on the processing

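Across 32 alternatives for the sex chromosome effect, the gonad effect and the interaction, the count of astrocyte genes called was 0 in all but 1. With limma voom and sample quality weights, 1 gene passed for the gonad effect, Fabp7 (0.55, adjusted p = 0.0294). Over the alternatives the adjusted p of Fabp7 ran from 0.0294 to 0.304. The cause was not tested. In the pairwise comparisons the count was 0 under every alternative run, and leaving out each library in turn gave a count of 0 in each of the 9 comparisons. The number with an unadjusted p under 0.05 ran from 9 to 13 for the gonad effect, was 12 with DESeq2 and 11 without XYF replicate 4, and ran from 0 to 2 for the sex chromosomes and for the interaction. The medians over the 37 genes stayed between -0.05 and -0.02, between -0.02 and 0.01, and between -0.08 and -0.01 in that order of sex chromosomes, gonad and interaction. With the choroid plexus covariate the interaction estimate of Slc7a10 was 0.05, against -0.15 without it. Iigp1 did not pass for the gonad effect with limma voom (-0.84, adjusted p = 0.0593), and passed in the other 30 alternatives. No paired analysis was possible because the labels give no replicate number shared between groups. The spread between animals limits what can be seen: for Fabp7 and Cd44, the 2 most variable genes, intervals were the widest.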
